A study of Mus musculus with 18 samples.

Results

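The first postnatal week of the Plk3-KO mouse retina was followed on 6 of the 18 arrays of the series. These were the 3 arrays of Plk3-KO retina at postnatal day 0 (P0) and the 3 at P7, and 6 WT littermate arrays of the same ages served as the comparison. The mice carried a deletion of the first exons of Plk3, had been crossed to C57Bl/6, and came from a line whose partly Black Swiss background held the rd1 allele of Pde6b, which was removed by crossing. RNA from whole retina was hybridised to Affymetrix mouse genome arrays, and the adult arrays of both genotypes contributed only to the estimate of the spread. The study calls its arrays biological replicates of littermates, but no source used here says whether each array of a group came from a separate animal or litter, so p-values measure the spread between these arrays only, and 3 arrays a group limit the precision.

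In the mouse retina, multipotent progenitors divide and leave the cell cycle in an overlapping order. Ganglion cells, horizontal cells, cones and most amacrine cells are born before birth, while many rods and the bipolar cells and Müller glia are born around and after it. Over the first days after birth division ceases, rods switch on the proteins of the light response, outer segments begin to form around a connecting cilium, and synapses are assembled in both plexiform layers. Plk3 belongs to the polo-like kinases, of which Plk1 acts in mitosis and Plk4 in the duplication of centrioles. The question put to these arrays was which of the first-week changes took place in retina without Plk3, and how far each ran as in WT.

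Values are log2 signals, on which 1 unit is a 2-fold difference. Of 23207 probe sets with a mean above 7 at P0 or P7 in Plk3-KO, 4871 changed between the ages (limma, adjusted p under 0.05), which is 21% of those tested. Of these, 2452 rose (10.6%) and 2419 fell (10.4%), with median changes of 1.23 and -1.30. A rise of at least 4 was seen in 69 probe sets and a fall of at least 4 in 137. After centring the arrays on 1 median, which moved the median change of all probe sets from -0.10 to 0.13, 2266 rose and 1079 fell, so the even split depended on the scaling. Among the genes named from here on, centring ended the call of a rise for Gnat2, Neurod1, Ift20, Car2, Insm1 and Ldha and of a fall for Rxrg, Tfap2a, Pax6, Pou4f1, Glul, Pcna, Kif22, Cdk2ap1, Hk2, Kdr and Med8, of which Rxrg and Insm1 also lost it after quantile normalization. With 1 probe set per gene, 3096 of 11436 genes changed, or 27.1%, and the shares of genes that rose (14.6%) and fell (12.5%) are the background for the counts of genes given from here on. The median change of all genes tested was 0 in Plk3-KO and 0.03 in WT.

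The largest rises in Plk3-KO among genes above 7 at both ages were those of photoreceptor genes, and the largest falls those of genes of cell division. Of the 12 largest rises, 7 belonged to the rod list (Rcvrn, Pde6b, Gngt1, Reep6, Pde6g, Cngb1 and Rp1). The others were Rgs5, a gene of pericytes, Fabp12, Prcd, Wdr17 and Ppargc1b, a transcriptional coactivator of mitochondrial genes. Of the 12 largest falls, 9 belonged to the mitosis list (Cenpf, Ube2c, Top2a, Nusap1, Cdca3, Mki67, Ect2, Birc5 and Cdc20), beside Rrm2 of DNA precursor synthesis, Arhgap11a and Shcbp1. In bulk retina, fewer cells of a type and less RNA per cell cannot be told apart.

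**Figure D1:**
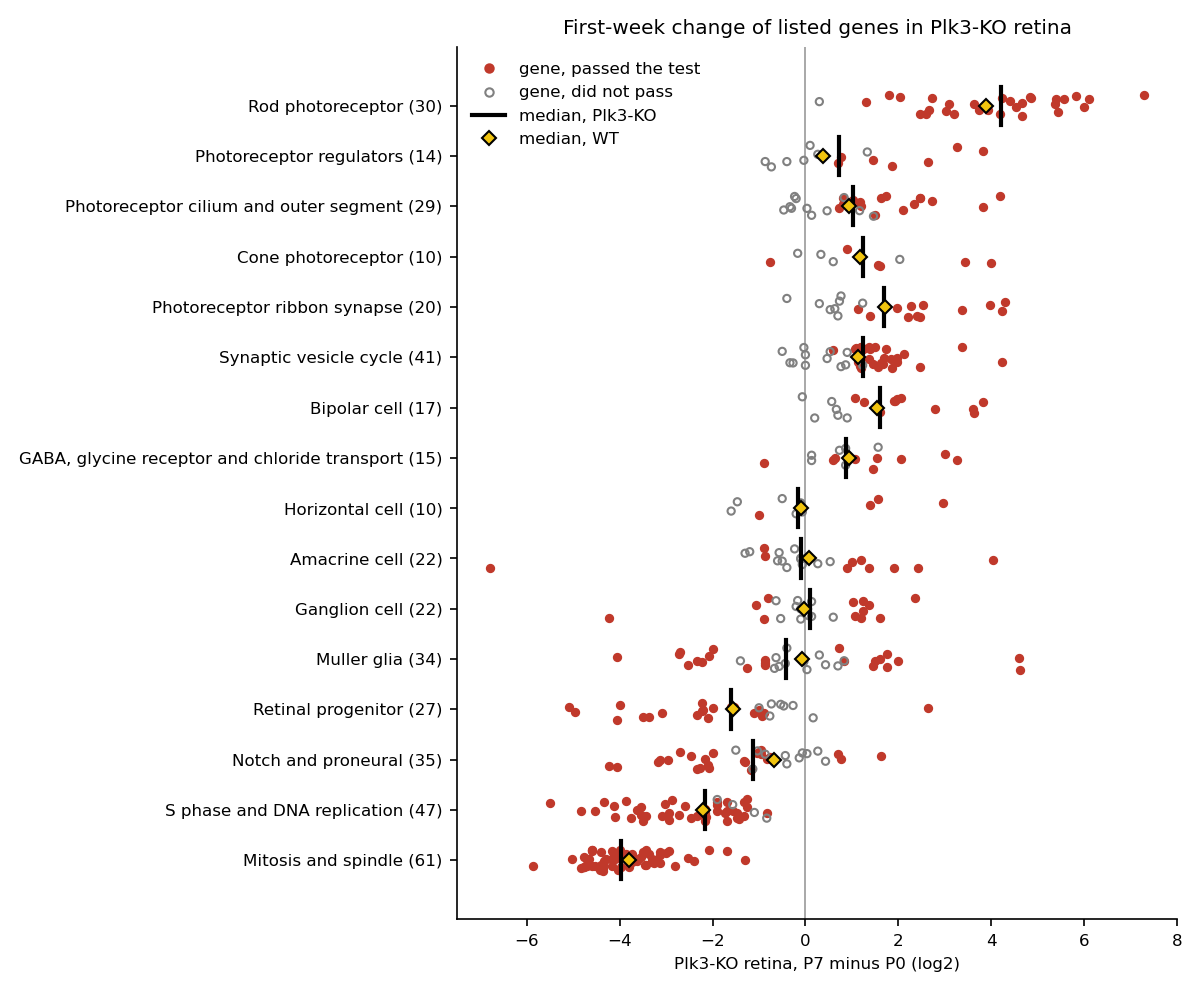
Change from P0 to P7 in Plk3-KO retina (log2) of every tested gene of 16 gene lists, with the number of genes tested in brackets. Filled points passed the test (limma, adjusted p under 0.05), open points did not, the bar is the median in Plk3-KO and the diamond the median in WT. The rod median lies at 4.22 and the mitosis median at -3.97, and the WT medians lie close to those of Plk3-KO.

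Of the genes of the rod and cell cycle lists and their regulators, 7 are shown with the 250 bases before their start, from RefSeq on GRCm38.p6, because photoreceptor and cell cycle genes are known to carry short motifs there. Nrl, the rod factor, Pde6b, of the rod phosphodiesterase, Cdc20, of the anaphase-promoting complex, and Mcm2, of the replicative helicase, were picked without regard to the motifs. Crx, the photoreceptor homeodomain factor, and Cngb1, a rod channel subunit, were added because their windows held TAATCC, and Cdk1, the mitotic kinase, because its window held TTTGAA. Capitals mark matches on either strand to 4 motifs, none of which contains another. TAATCC is a motif bound by Crx and Otx2, TGCTGA is part of the element of Maf and Nrl factors, TTTGAA is the cell cycle genes homology region, and CCAAT is the box bound by NF-Y.
Nrl (chr14:55524253-55524502, minus strand): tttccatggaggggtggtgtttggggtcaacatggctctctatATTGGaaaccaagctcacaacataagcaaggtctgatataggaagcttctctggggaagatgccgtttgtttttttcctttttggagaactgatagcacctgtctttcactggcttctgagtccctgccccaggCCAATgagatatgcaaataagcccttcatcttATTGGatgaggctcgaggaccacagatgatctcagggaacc
Pde6b (chr5:108388123-108388372, plus strand): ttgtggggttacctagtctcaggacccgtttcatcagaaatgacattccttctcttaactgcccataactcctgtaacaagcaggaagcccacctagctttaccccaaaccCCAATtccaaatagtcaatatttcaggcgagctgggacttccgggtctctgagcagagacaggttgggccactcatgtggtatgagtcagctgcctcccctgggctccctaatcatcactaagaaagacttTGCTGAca
Cdc20 (chr4:118437344-118437593, minus strand): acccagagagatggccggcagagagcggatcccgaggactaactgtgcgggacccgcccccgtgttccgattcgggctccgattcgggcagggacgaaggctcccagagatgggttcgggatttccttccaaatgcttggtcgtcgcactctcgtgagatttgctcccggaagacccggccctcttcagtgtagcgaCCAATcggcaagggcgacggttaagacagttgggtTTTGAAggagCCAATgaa
Mcm2 (chr6:88898781-88899030, minus strand): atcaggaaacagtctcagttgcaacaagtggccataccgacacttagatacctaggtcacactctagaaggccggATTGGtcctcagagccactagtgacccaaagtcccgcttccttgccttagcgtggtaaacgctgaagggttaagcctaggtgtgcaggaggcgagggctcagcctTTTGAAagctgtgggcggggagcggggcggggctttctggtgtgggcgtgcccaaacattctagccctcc
Crx (chr7:15879956-15880205, minus strand): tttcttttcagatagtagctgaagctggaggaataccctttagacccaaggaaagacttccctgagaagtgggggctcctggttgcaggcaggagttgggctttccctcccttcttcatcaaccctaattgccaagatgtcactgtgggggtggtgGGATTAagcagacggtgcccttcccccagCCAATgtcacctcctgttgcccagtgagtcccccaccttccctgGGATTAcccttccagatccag
Cngb1 (chr8:95306586-95306835, minus strand): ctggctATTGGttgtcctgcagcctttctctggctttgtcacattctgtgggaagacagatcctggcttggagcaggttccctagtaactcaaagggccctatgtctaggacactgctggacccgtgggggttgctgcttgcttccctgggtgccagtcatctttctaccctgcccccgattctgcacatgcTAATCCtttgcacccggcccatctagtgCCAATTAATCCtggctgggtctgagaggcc
Cdk1 (chr10:69352913-69353162, minus strand): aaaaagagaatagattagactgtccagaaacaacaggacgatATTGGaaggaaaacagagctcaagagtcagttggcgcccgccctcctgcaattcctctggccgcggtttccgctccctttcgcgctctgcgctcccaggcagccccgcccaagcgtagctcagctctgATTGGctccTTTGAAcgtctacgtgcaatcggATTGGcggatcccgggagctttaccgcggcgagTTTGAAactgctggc

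In Crx, TAATCC was matched on the opposite strand at 94 to 89 and at 21 to 16 bases before the start. In Cngb1 it was matched on the strand of the gene at 58 to 53 and at 25 to 20 bases, the second abutting a CCAAT box at 30 to 26 bases. Cdk1 held TTTGAA at 71 to 66 and at 15 to 10 bases. Among the 4 picked without regard to the motifs, Cdc20 held TTTGAA at 18 to 13 bases and Mcm2 at 70 to 65 bases, and neither Nrl nor Pde6b held TAATCC, while Nrl held CCAAT at 73 to 69 bases. The table held promoters for 22 of the 30 tested rod genes, and 8 of their 25 windows (32%) held TAATCC, as did 6.25% of all 32851 windows of 27025 genes. Of the 54 windows of the mitosis genes, 0 held TAATCC, 33.3% held TTTGAA against 16% of all windows, and 74.1% held CCAAT against 33.8%. Of the 48 windows of the S phase genes, 2.08% held TAATCC, 14.6% TTTGAA and 60.4% the CCAAT box. The Maf motif TGCTGA stood in 24% of the rod windows and in 16.1% of all. These shares describe letters in the windows only.

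Rod genes rose together in Plk3-KO retina. Of 36 genes listed, 31 were on the array under 1 symbol and 30 were tested, of which 29 rose and 0 fell, with a median change of 4.22 against 3.88 in WT. In 29 of the 30 the P0 and P7 arrays of Plk3-KO did not overlap, against 46.7% of all genes tested. Of the 30, 11 passed the filter only through their P7 level, so a rise of those was built into the choice. Cnga1, the other subunit of the rod channel, changed by 7.30 and Impg1, of the matrix between photoreceptors, by 6.10 (both named after their values were seen). The smallest change, 0.30, was that of Rgs9, which shortens the light response and whose Plk3-KO arrays read 7.5, 8.2 and 7.6 at P0 and 7.7, 8.1 and 8.4 at P7. Rgs9, named after its values were seen, did not pass the test, and its arrays of both ages overlapped.

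Rcvrn encodes recoverin, a calcium sensor of photoreceptors. Its signal in Plk3-KO was 8.7, 8.6 and 7.1 at P0 and 13.4, 13.9 and 13.8 at P7. All 3 P7 arrays lay far above the P0 arrays, of which the third was lowest, and the change was 5.57 ± 0.43 (SE; adjusted p = 2.485e-07). In WT it was 5.03, and the 95% interval of the difference between genotypes ran from -0.76 to 1.83. Pde6b encodes a catalytic subunit of the rod phosphodiesterase. It read 9.5, 9.1 and 8.1 at P0 and 14.1, 14.7 and 14.0 at P7 in Plk3-KO, with no overlap, a change of 5.37 ± 0.48 (adjusted p = 8.454e-07) against 5.07 in WT (interval -1.13 to 1.73). Gnat1, the rod transducin alpha subunit, read 5.2, 5.6 and 6.0 at P0 and 10.2, 11.3 and 11.5 at P7. It went from below the filter to well above it, by 5.40 in Plk3-KO and 6.40 in WT (interval of the difference -2.66 to 0.66).

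Nrl, Sag, Pdc and Gnb1 rose by less than the median of the rod list. Nrl, the leucine zipper factor that specifies rods, read 12.6, 12.5 and 12 at P0 and 14.7, 15.4 and 14.8 at P7, a change of 2.60 ± 0.32 (adjusted p = 2.378e-05) against 2.40 in WT (interval -0.76 to 1.16). Sag, rod arrestin, rose by 3.20 (WT 3.23), Pdc, phosducin, by 1.80 (WT 1.70) and Gnb1, a transducin beta subunit, by 1.30 (WT 1.13). None of these had overlapping Plk3-KO arrays. Rp1, a microtubule protein of the photoreceptor axoneme that the study singled out in the adult, read 9.6, 9.8 and 9.2 at P0 and 13.2, 14.5 and 13.5 at P7. The 3 P7 arrays lay above all P0 arrays, and Rp1 rose by 4.20 ± 0.31 (adjusted p = 1.484e-07), against 3.83 in WT with an interval of the difference from -0.55 to 1.29.

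**Figure D2:**
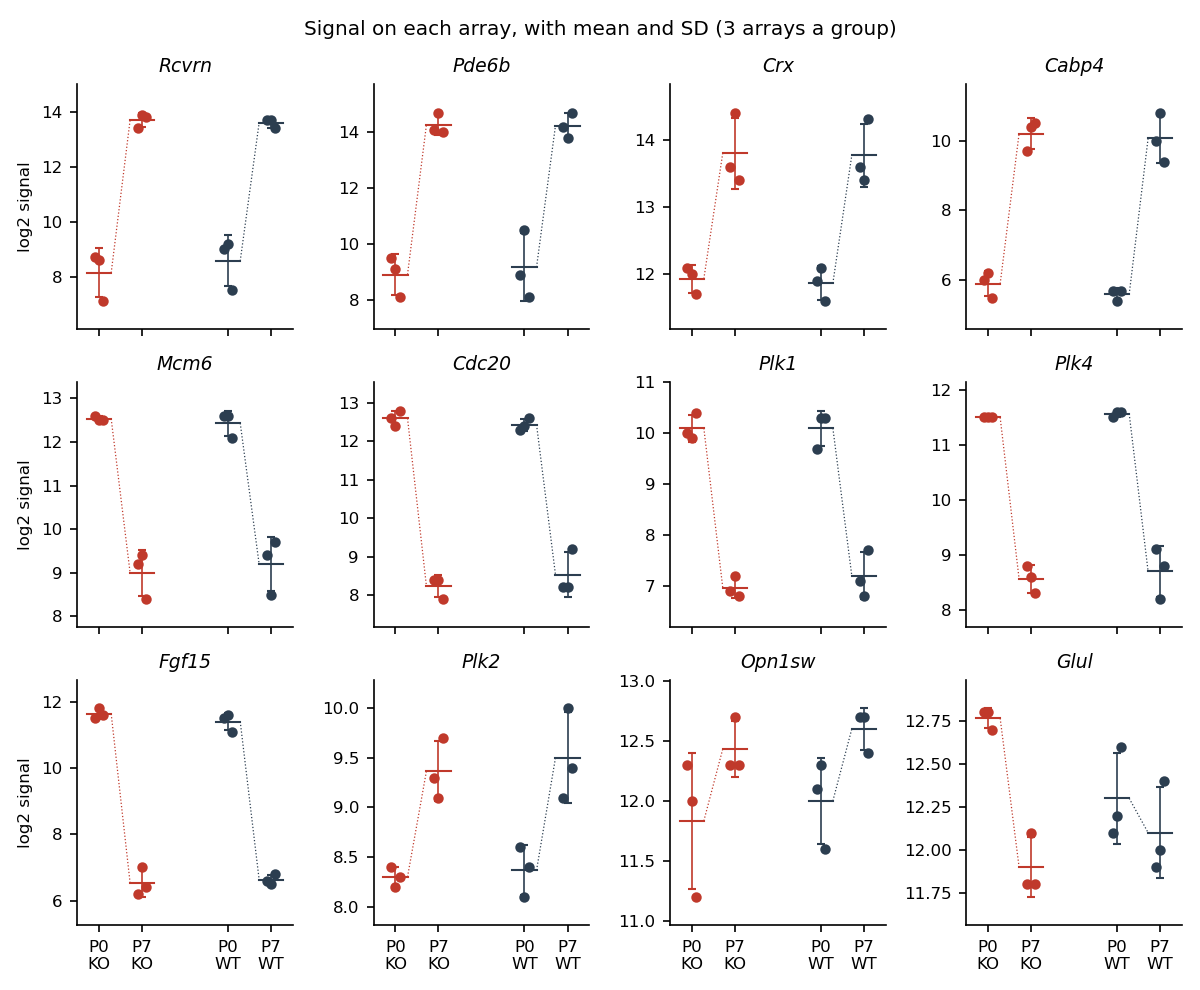
Log2 signal of 12 genes on each of the 3 arrays a group, with the mean (bar) and SD (whisker), for Plk3-KO (red) and WT (dark) at P0 and P7. Each panel has its own scale. Rcvrn, Pde6b, Crx, Cabp4 and Plk2 rose, Mcm6, Cdc20, Plk1, Plk4 and Fgf15 fell in both genotypes, Opn1sw did not pass in either, and Glul fell in Plk3-KO.

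Among the transcription factors and other regulators of photoreceptors, 7 of 14 rose and 0 fell, with a median of 0.73 (WT 0.38). Of the 14, 2 passed the filter through P7 alone, so a rise of those was built into the choice. Crx, which drives much of the photoreceptor programme, read 12.1, 12 and 11.7 at P0 and 13.6, 14.4 and 13.4 at P7 in Plk3-KO. The ages did not overlap and Crx rose by 1.87 ± 0.28 (adjusted p = 0.0001406; WT 1.90). Otx2, which acts upstream of Crx, read 13.7, 13.8 and 13.2 at P0 and 13.7, 13.6 and 13.7 at P7, a change of 0.10 that did not pass. Prdm1, which restrains the bipolar fate, differed by -0.40 and did not pass. Neurod1, a proneural factor kept by photoreceptors, rose by 0.70 (adjusted p = 0.03836). It did not pass in WT (0.30), and the interval of the difference, -0.28 to 1.08, included 0.

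Genes of the cilium and outer segment rose in 18 of 29 cases, 0 fell, and the median was 1.03 (WT 0.93). Cdhr1, a cadherin at the base of the outer segment, read 11.4, 11.6 and 11.6 at P0 and 14.1, 14.8 and 13.9 at P7, and rose by 2.73 (WT 2.50). Prom1, needed for the shape of the discs, rose by 2.33, Unc119, a carrier of lipid-modified proteins, by 2.47, Ttc8, a subunit of the BBSome, by 1.63, and Cep290, of the transition zone, by 1.20. Rpgrip1, of the connecting cilium, differed by 1.47 with an adjusted p of 0.05097 at the probe set with the highest mean, while another of its probe sets rose by 1.70. Of the intraflagellar transport genes, Ift88 differed by 0.03, Ift52 by -0.20 and Ift140 by -0.23 without passing, while Ift20 rose by 0.73 (these were named after their values were seen).

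Cone genes were mixed. Of 10 tested, 5 rose and 1 fell, with a median of 1.23 (WT 1.17) that was 0.68 when the third WT and second Plk3-KO array at P7, which stood apart from the rest, were left out. Opn1sw, the short-wavelength opsin, read 12.3, 12 and 11.2 at P0 and 12.3, 12.7 and 12.3 at P7. Its ages met at 12.3, and the change of 0.60 did not pass (adjusted p = 0.1577). In WT it was also 0.60, with an interval of the difference from -0.86 to 0.86. Arr3, cone arrestin, read 5.9, 6.5 and 4.7 at P0 and 9.6, 10.0 and 9.5 at P7 and rose by 4.0 (WT 4.20), while Gnat2, cone transducin, rose by 0.90 and Gnb3, its beta subunit and one also used by ON bipolar cells, by 1.60. Arr3 was among 2 of the 10 that passed the filter through P7 alone, so a rise of those was built into the choice. Rxrg, a nuclear receptor of immature cones, fell by 0.77 on the log2 scale (named after its value was seen).

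Bipolar genes rose in 11 of 17 cases and 0 fell, with a median of 1.60 (WT 1.53). Of the 17, 5 passed the filter through P7 alone, Vsx1 among them, so a rise of those was built into the choice. Vsx1, a homeobox gene of cone bipolar cells, read 5.3, 5.5 and 3.1 at P0 and 9.1, 7.5 and 8.8 at P7. All P7 arrays were higher, the second least so, and the change was 3.83 ± 0.59 (adjusted p = 0.0002173; WT 3.10). Prkca, of rod bipolar cells, read 9.8, 9.5 and 9.8 at P0 and 12.1, 11.2 and 11.6 at P7 and rose by 1.93, Sebox by 1.90 and Isl1, of ON bipolar, amacrine and ganglion cells, by 1.07. The mean of the bipolar list was 8.40 on the second P7 Plk3-KO array against 9.19 and 9.23 on the other 2. Without that array and its WT counterpart 14 of the 17 rose.

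The earlier-born neurons moved less evenly. Of 22 amacrine genes, 7 rose, 3 fell and 12 did not pass, with a median of -0.10 (WT 0.08) whose sign changed with centring. Those that rose included genes of transmitter handling, Gad1 by 0.90 and Slc6a9, the glycine transporter, by 1.20, and Calb2 by 1.00. Those that fell were transcription factors, Pax6 by 0.90 on the log2 scale, Tfap2a and Ptf1a, the last by 6.80 (Tfap2a and Ptf1a were named after their values were seen). Of the 22, 1 passed the filter through P0 alone and 2 through P7 alone, so the direction of those changes was built into the choice. Tac1, named by the study, read 10.6, 10.7 and 10.0 at P0 and 11.1, 11.7 and 10.1 at P7, overlapped between ages and did not pass (0.53). Of 10 horizontal cell genes, 3 rose and 1 fell. Calb1, calbindin, read 7.5, 7.3 and 7.0 at P0 and 10.3, 10.0 and 10.4 at P7 and rose by 2.97, whereas Onecut1 read 7.9, 7.8 and 7.6 at P0 and 7.3, 3.9 and 7.3 at P7 and did not pass. The low Onecut1 value lay on the second P7 array, which was also lowest for the horizontal list as a whole (8.18 against 9.35 and 9.06).

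Of 22 ganglion cell genes, 8 rose and 4 fell, with a median of 0.10 (WT -0.03). Pou4f1, a POU factor of ganglion cells, read 11.6, 10.9 and 12 at P0 and 10.1, 10.3 and 10.9 at P7 and fell by 1.07 on the log2 scale (adjusted p = 0.02366), though its ages met at 10.9. Nefl, a neurofilament subunit, rose by 1.03. Rbpms, a marker of all ganglion cells, differed by -0.53 and did not pass. Atoh7, the proneural gene that ganglion cell precursors need, fell by 4.23 on the log2 scale (named after its value was seen), and its WT change was -4.30.

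Müller glia share many genes with the progenitors they resemble, and the list split, with 10 of 34 genes up, 12 down and a median of -0.42 (WT -0.07), though after centring 8 were up and 8 down. Of the 34, 3 passed the filter through P7 alone and 1 through P0 alone, so the direction of those changes was built into the choice. The genes that fell included Hes1, Hes5, Sox2, Sox8, Sox9 and Nrarp, of Notch signalling and of progenitors, and Spc25, a kinetochore gene. Those that rose included Rlbp1, which carries retinoids, by 1.50 and Car2, carbonic anhydrase, by 0.83, and Aqp4, the water channel, by 1.77, Clu by 2.0 and Mlc1 by 4.63 (all but Rlbp1, Spc25 and Car2 were named after their values were seen). Vim, vimentin, differed by -0.43 at the probe set used and did not pass, while 2 others of its probe sets fell by 0.97 and by 0.93 on the log2 scale. Glul, glutamine synthetase, read 12.8, 12.8 and 12.7 at P0 and 11.8, 12.1 and 11.8 at P7 in Plk3-KO, with no overlap. It fell by 0.87 on the log2 scale (SE 0.20, adjusted p = 0.004752), but after centring the change of -0.63 did not pass (adjusted p = 0.335). In WT, with 12.1, 12.2 and 12.6 at P0 and 11.9, 12 and 12.4 at P7, it differed by -0.20 and did not pass. The 95% interval of the difference, -1.26 to -0.07, left out 0 only before adjustment over all probe sets (adjusted p = 1).

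Genes of cell division fell. Of 61 genes of mitosis and the spindle, 61 fell, against 12.5% of all genes, with a median of -3.97 (WT -3.80), and 29 of them passed the filter through P0 alone, so a fall of those was built into the choice. Cdc20, the activator of the anaphase-promoting complex, read 12.6, 12.4 and 12.8 at P0 and 8.4, 8.4 and 7.9 at P7. The ages were more than 4 units apart on average, and Cdc20 fell by 4.37 on the log2 scale (SE 0.40, adjusted p = 1.021e-06; WT -3.90). Top2a, the topoisomerase of dividing cells, read 13.3, 13.4 and 13.4 at P0 and 8.4, 9.4 and 8.2 at P7 and fell by 4.70 on the log2 scale (WT -4.40). Cdk1 read 12.4, 12.4 and 12.5 at P0 and 8.1, 8.9 and 7.8 at P7 and fell by 4.17 on the log2 scale (WT -4.07), and Mki67, the Ki-67 antigen, read 13.0, 13.0 and 13.2 and then 8.8, 8.9 and 8.3 and fell by 4.40 (WT -4.13). Both kept their 3 P7 arrays below every P0 array. The least change was that of Kif22, a chromosome-arm kinesin, with -1.30 (WT -1.13; named after its value was seen).

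For 53 of the 61 mitosis genes the fall was larger in Plk3-KO than in WT and for 7 smaller, with a median difference of -0.27, and 0 of them differed between genotypes at an adjusted p under 0.05 or an unadjusted one. The change was also the lower in Plk3-KO for 25 of 27 progenitor genes (median difference -0.30), 28 of 34 Müller glia genes (-0.23) and 19 of 22 amacrine genes (-0.22), and the higher for 21 of 29 genes of the cilium and outer segment (0.10). Of all 11436 genes 55.6% had the lower and 39% the higher change in Plk3-KO, with a median difference of -0.07. The genes of a list are not independent of each other. The progenitor mean at P0 was 11.33, 11.28 and 11.25 in Plk3-KO and 11.08, 11.08 and 11.10 in WT, without overlap, and at P7 9.51, 9.34 and 9.44 against 9.50, 9.34 and 9.66, with overlap. The mitosis mean at P7 was 7.19, 7.68 and 7.04 in Plk3-KO and 7.46, 7.25 and 8.06 in WT, which overlap, and the highest in each genotype was the array that stood apart. At P0 it was 11.05, 11.13 and 11.29 in Plk3-KO and 11.18, 11.21 and 11.13 in WT.

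Of 47 genes of S phase and DNA replication, 43 fell and 0 rose, with a median of -2.17 (WT -2.20), and all 47 had Plk3-KO arrays that did not overlap. Of the 47, 14 passed the filter through P0 alone, so a fall of those was built into the choice. Mcm6 read 12.6, 12.5 and 12.5 at P0 and 9.2, 9.4 and 8.4 at P7 and fell by 3.53 on the log2 scale (SE 0.34, adjusted p = 2.176e-06; WT -3.23). Rrm2, of the ribonucleotide reductase, fell by 4.53, Pcna, the sliding clamp, by 1.27 and Slbp, which binds histone messages, by 1.70, all on the log2 scale. Mcm2 read 10.4, 10.4 and 10.7 at P0 and 9.1, 9.6 and 9.5 at P7 at the probe set used, where the change of -1.10 did not pass (adjusted p = 0.1238), while another probe set of Mcm2 fell by 3.47 on the log2 scale. Of 31 genes of chromatin and DNA methylation, 10 fell and 2 rose: the maintenance methylase Dnmt1 fell by 1.33 and the Polycomb methylase Ezh2 by 1.60 on the log2 scale, while the de novo methylase Dnmt3a rose by 0.93.

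The polo-like kinases themselves went different ways. Plk1 read 10.0, 9.9 and 10.4 at P0 and 6.9, 7.2 and 6.8 at P7 in Plk3-KO and fell by 3.13 on the log2 scale (SE 0.35, adjusted p = 1.037e-05; WT -2.90). Plk4 read 11.5 on each P0 array and 8.8, 8.6 and 8.3 at P7 and fell by 2.93 on the log2 scale (SE 0.23, adjusted p = 2.705e-07; WT -2.87). Plk1 and Plk4 thus left no overlap between the ages. Plk2, a member induced by neuronal activity and by p53, read 8.4, 8.2 and 8.3 at P0 and 9.3, 9.1 and 9.7 at P7 and rose by 1.07 (SE 0.24, adjusted p = 0.004742; WT 1.13). Plk5, expressed in the nervous system, read 5.2, 6.2 and 3.5 at P0 and 8.1, 8.0 and 9.1 at P7 and rose by 3.43 (SE 0.67, adjusted p = 0.001575; WT 2.77). Plk1 passed the filter through P0 alone and Plk5 through P7 alone, so the direction of both changes was built into the choice. The intervals of the difference ran from -1.30 to 0.83 for Plk1, -0.79 to 0.66 for Plk2, -0.76 to 0.62 for Plk4 and -1.36 to 2.69 for Plk5.

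The only probe set of Plk3 lies at the 3′ end of the gene, outside the deleted exons, and so does not measure their loss. The study found this 3′ signal raised in Plk3-KO on its arrays, and by quantitative PCR in the adult. With PCR primers in the targeted 5′ region it found the signal strongly lowered. Its in situ probes along the gene, the 3′ one included, gave no signal in Plk3-KO retina. The array signal read 8.0, 8.2 and 7.5 at P0 and 8.1, 6.1 and 7.7 at P7 on the arrays labelled Plk3-KO, and 6.4, 6.9 and 7.3 and then 6.0, 6.3 and 6.0 in WT. The second P7 array labelled Plk3-KO, at 6.1, lay within the WT values of its age. The ages overlapped in Plk3-KO and the changes, -0.60 in Plk3-KO (adjusted p = 0.4969) and -0.77 in WT, did not pass. At the Cap1 probe set used, the second P7 Plk3-KO array read 10.1, above WT at 9.4, 9.1 and 8.6. At another it read 7.4, within WT at 7.1, 7.5 and 5.3. At an untested Med8 probe set it read 5.2, below WT at 7.2, 7.1 and 6.0. At 1 Khdrbs1 probe set it read 11.7, beside 8.3 and 7.8 in Plk3-KO and a WT mean of 12.33. There the third P0 array labelled Plk3-KO read 13.0, beside 9.1 and 9.1 and a WT mean of 12.80. Whether labels match genotypes was not tested.

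Progenitor genes fell in 19 of 27 cases and 1 rose, with a median of -1.60 (WT -1.57), and 3 of the 27 passed the filter through P0 alone. Ccnd1, the D cyclin of retinal progenitors, read 14.3, 14.4 and 14.7 at P0 and 10.8, 11.6 and 10.5 at P7 and fell by 3.50 on the log2 scale (SE 0.29, adjusted p = 5.146e-07; WT -2.93, interval of the difference -1.45 to 0.32). Fgf15, of late progenitors, read 11.5, 11.8 and 11.6 and then 6.2, 7.0 and 6.4, falling by 5.10, and Sfrp2, a secreted Wnt antagonist, read 11.1, 11.1 and 11.0 and then 7.8, 7.9 and 7.4, falling by 3.37 on the log2 scale. Each left a wide gap between the ages. The 1 that rose was Crb1, an apical polarity gene that photoreceptors and Müller glia also use, with 2.63 (named after its value was seen). Of 35 genes of Notch signalling and proneural function, 21 fell and 3 rose, with a median of -1.13 (WT -0.67). Through P0 alone 2 of the 35 passed the filter. The ligand Dll1 read 11.3, 11.2 and 11.7 and then 9.5, 9.3 and 8.9 and fell by 2.17, Hes6 fell by 2.27 and the proneural gene Neurog2 by 2.97 on the log2 scale. The 3 that rose were Neurod1, Insm1 and the ligand Jag1, the last by 1.63 (Insm1 and Jag1 were named after their values were seen), and without the P7 arrays that stood apart 17 fell and 0 rose.

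The list of cell cycle exit held D cyclins and cyclin-dependent kinases beside inhibitors of division, so a fall in it need not be one of an exit gene. Among its 22 genes tested, 0 rose and 8 fell, including the D cyclin Ccnd1 and Cdk2ap1 (by 1.13 on the log2 scale). Cdkn1b, the inhibitor p27, read 12.5, 12.1 and 12 at P0 and 11.8, 12.3 and 11.4 at P7, overlapped between ages and did not pass (-0.37), and Cdkn1c, Cdkn1a, Rb1 and Btg1 did not pass either. Of 18 p53 targets, 2 rose, Ccng1 by 1.13 and Plk2, and 1 fell, while Mdm2 (-0.20) and Cdkn1a (-0.13) did not pass. Among 15 immediate early genes, 3 rose and 3 fell, but after centring 3 rose and 0 fell. Egr1 read 9.3, 7.9 and 8.5 at P0 and 10.9, 11.6 and 11.2 at P7 and rose by 2.67 (WT 2.93), whereas Fos differed by 0.67 in Plk3-KO, where it did not pass, and rose by 1.47 in WT (interval of the difference -2.19 to 0.59).

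Synaptic genes rose with the photoreceptor genes. Of 41 genes of the synaptic vesicle cycle, 29 rose and 0 fell, with a median of 1.23 (WT 1.13). Syp, synaptophysin, read 11.4, 10.9 and 11.1 at P0 and 12.6, 13.0 and 12.8 at P7 and rose by 1.67 (SE 0.22, adjusted p = 5.094e-05; WT 1.67), the calcium sensor Syt1 by 1.47 and Snap25, of the fusion complex, by 1.20. Of 20 genes of the photoreceptor ribbon synapse, 12 rose and 0 fell, and 3, Cabp4 among them, passed the filter through P7 alone. A rise of those 3 was built into the choice. Cabp4, which tunes the calcium channel of the terminal, read 6.0, 6.2 and 5.5 and then 9.7, 10.4 and 10.5 and rose by 4.30 (WT 4.47), the channel subunit Cacna1f by 2.40 and the vesicular glutamate transporter Slc17a7 by 3.37, while Ctbp2, the host gene of the ribbon protein, differed by 0.53 and did not pass. Of 15 genes of GABA and glycine receptors and chloride transport, 8 rose and 1 fell, and 6 passed the filter through P7 alone. Slc12a5, the chloride exporter of mature neurons, read 10.5, 10.6 and 10.4 and then 12.8, 12.3 and 12.6, with no overlap, and rose by 2.07 (WT 2.20), and Slc12a2, the chloride importer of immature neurons, differed by 0.13 and did not pass. Of 9 ionotropic glutamate receptor genes 1 rose, and for Gria2 and Gria4, at 0.30 each, the second P7 array lay below the P0 arrays.

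Of 35 markers of young neurons, 25 did not pass, 2 rose and 8 fell, but after centring 2 rose and 2 fell. Dcx, doublecortin, read 11.2, 11.2 and 11.1 and then 10.1, 10.0 and 10.1 with no overlap, yet did not pass (-1.10, SE 0.82), and Stmn1, Tubb3 and Gap43 did not pass. That SE came from the fit to all 18 arrays, the adult ones included, and is wide beside the spread of these Dcx values. In the list of fetal and imprinted growth genes 5 of 16 fell and 1 rose. Igf2bp1, a fetal RNA-binding protein, fell by 3.73 and Plagl1 by 2.37 on the log2 scale, while Igf2 rose by 1.30 (WT 1.50). In glycolysis 8 of 20 genes rose and 3 fell, but after centring 6 rose and 0 fell. Aldoc rose by 2.77 and Ldha by 1.03, and Hk2 fell by 0.67 on the log2 scale. Ppargc1a, a coactivator of mitochondrial genes, rose by 1.77 (WT 1.43). Of 55 genes of mitochondrial respiration 13 rose, 1 fell and 41 did not pass, with a median of 0.67 (WT 0.63), and 34 rose after quantile normalization but 5 after centring and 10 without the P7 arrays that stood apart. Of 39 ribosomal protein genes 1 fell and 38 did not pass, with a median of -0.03 whose sign changed with centring. On the second P7 Plk3-KO array the ribosomal mean was 13.32 against 12.61 and 12.60, and the respiration mean 13.46 against 12.75 and 12.82.

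How far the changes ran as in WT was asked over all probe sets. Of the 4871 probe sets called in Plk3-KO, 3727 (76.5%) were also called in WT in the same direction and 0 in the opposite one. In WT 4677 of the 23207 were called (20.2%), and the shared calls are 79.7% of those. A WT change of the same sign was found for 4864 of the 4871, of the opposite sign for 5, and of 0 for 2. The 1144 called in Plk3-KO alone had a median change of 1.00 there and of 0.63 in the same direction in WT, and the 950 called in WT alone one of 1.03 there and of 0.63 in Plk3-KO. Passing in 1 genotype alone is no test of a difference. Across the WT calls the median ratio of the Plk3-KO change to the WT change was 0.977, with quartiles of 0.812 and 1.12. Across the Plk3-KO calls the median ratio of the WT change to the Plk3-KO change was 0.913, so that each genotype's change was the smaller where the other's calls chose the probe sets. Across all tested probe sets the changes had a Pearson r of 0.925, a description over probe sets that are not independent, on arrays of which those that stood apart at P7 fell 1 in each genotype.

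**Figure D3:**
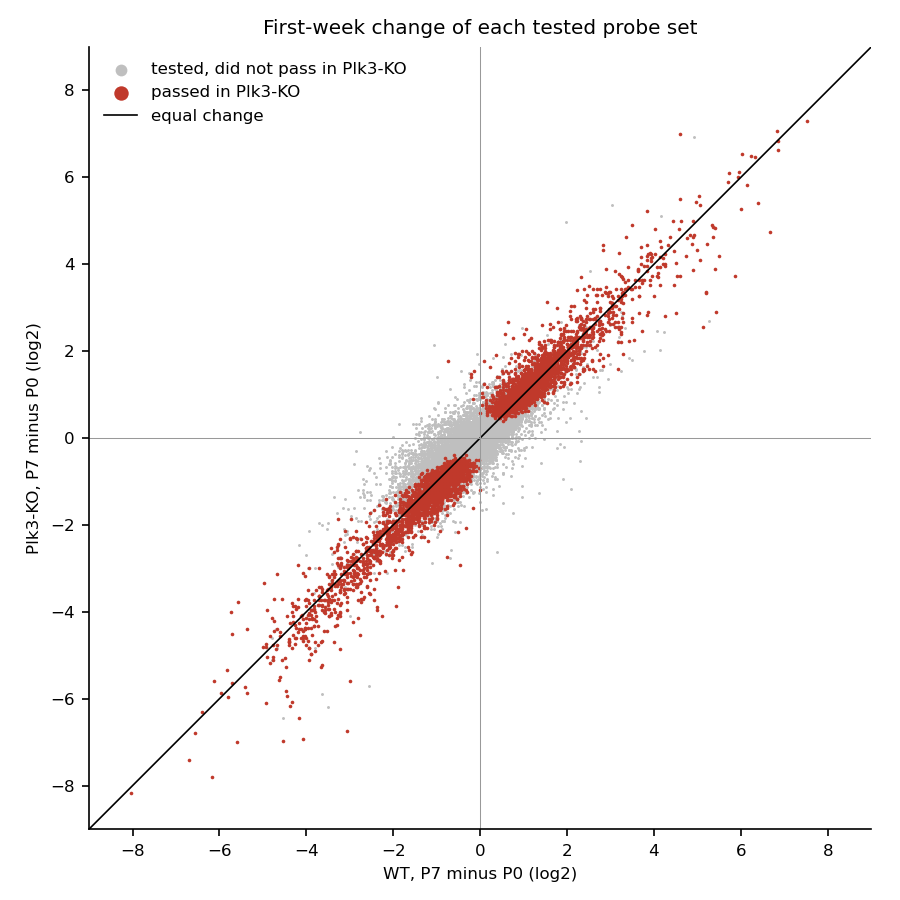
Change from P0 to P7 of each of the 23207 tested probe sets in WT (horizontal, log2) and Plk3-KO (vertical, log2), with the line of equal change. Red points are the 4871 called in Plk3-KO (limma, adjusted p under 0.05). Nearly all red points lie in the 2 quadrants where both genotypes change the same way.

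The difference between the genotypes' changes was tested directly. With limma 0 of 23207 probe sets passed (0%), and 105 had an unadjusted p under 0.05, where 5% of those tested would be 1160, so 0 calls do not show that the changes were alike. The Plk3-KO change was the higher in 58 of the 105 and the lower in 47. An unmoderated linear model also called 0, with 262 at an unadjusted p under 0.05. None of the 34 gene lists held a called difference. The 95% interval of the difference reached a median of 0.94 log2 units to either side of its centre. It lay wholly within 1 unit of 0 for 36.2% of tested probe sets and within 2 units for 80.7%. For the rest in each case the interval reached past a difference of that size. Of the 98 at an unadjusted p under 0.05 with a known chromosome, 4 (4.08%) lay on chromosome 4, where Plk3 is, against 6.17% of those tested. A difference between the genotypes that is equal at both ages cancels in this contrast, so the share cannot show it. Whether such lasting differences gather on that chromosome was not tested.

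The genes with the smallest p of the difference had an adjusted p of 1 each and are given as values. Nwd1 read 8.3, 8.0 and 8.3 at P0 and 8.6, 8.9 and 7.5 at P7 in Plk3-KO and 9.1, 8.1 and 9.1 and then 8.0, 4.5 and 5.5 in WT, with a difference of 2.90 (interval 0.94 to 4.86). The difference rests on 2 low WT arrays at P7. Cplx1, complexin 1, which clamps vesicle fusion, read 10.0, 9.7 and 10.1 and then 10.9, 11.6 and 10.8 in Plk3-KO, and 11.1, 10.1 and 11.1 and then 10.9, 10.7 and 11.2 in WT. At other probe sets the difference was 0.03 and 0.47 for Cplx1, -0.47 for Hddc3 and 0.23 and -0.47 for Zbtb14, so these differences depended on the probe set. Bhlhe40, a transcriptional repressor of the clock system, read 6.9, 6.9 and 7.0 at P0 in Plk3-KO and 5.6, 5.7 and 5.7 in WT, and the genotypes overlapped at P7. The differences in change were 1.50 for Gckr, -2.07 for Cthrc1, 2.50 for Hddc3, 1.00 for Cplx1, -1.0 for Bhlhe40, -0.73 for Zbtb14 and 1.00 for Pla2r1. Gckr averaged 3.57 in Plk3-KO and 5.23 in WT at P0, and 7.90 and 8.07 at P7. Pla2r1 averaged 5.57 and 6.47, then 9.07 and 8.97. These P0 means, and those of Bhlhe40 (6.93 and 5.67), lay below the filter of 7. Of the genes named by the study, Med8 fell by 0.53 on the log2 scale in Plk3-KO (adjusted p = 0.02338) and did not pass in WT (-0.37, interval of the difference -0.64 to 0.30), and Cap1 (-0.23) did not pass. The study named Med8, Cap1 and Khdrbs1 for differences between the genotypes, which these changes with age do not measure. Cap1 averaged 11.07 at P0 and 10.83 at P7 in Plk3-KO, and 9.27 and 9.03 in WT. Its P0 arrays overlapped between genotypes, with 11.4, 11.5 and 10.3 in Plk3-KO and 8.4, 8.9 and 10.5 in WT. At P7 they read 10.9, 10.1 and 11.5 against 9.4, 9.1 and 8.6, without overlap. Med8 averaged 11.37 and 10.83 against 11.23 and 10.87. At another probe set, not tested, Med8 averaged 5.47 and 4.93 against 7.13 and 6.77. The genotypes were not tested against each other within an age. Khdrbs1 (-0.70) did not pass at the probe set used, while 3 others of its probe sets fell, by 0.97, 1.37 and 1.80 on the log2 scale. Further probe sets of Khdrbs1, at -0.77 and -1.13, did not pass.

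**Figure D4:**
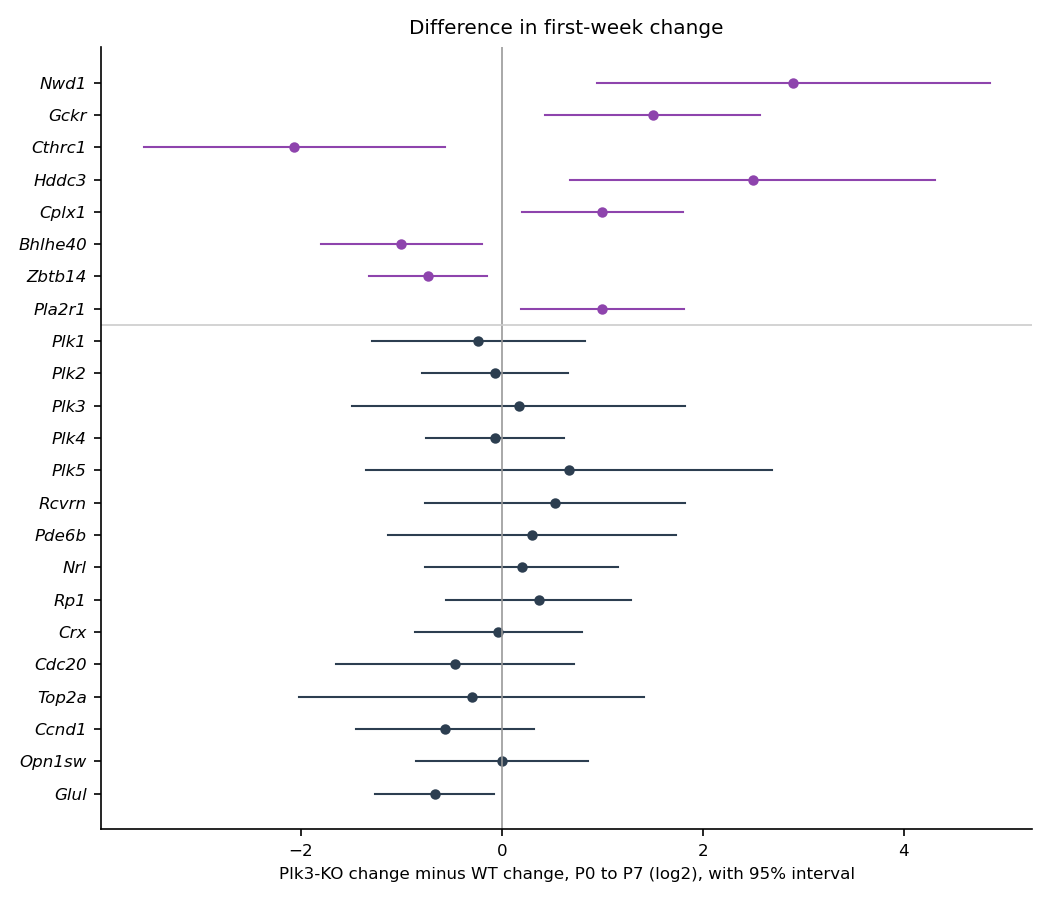
Difference between the Plk3-KO and WT changes from P0 to P7 (log2), with its 95% interval, for the 8 genes with the smallest p of the difference (purple, above the line) and for 15 genes described in the text (dark). The intervals are unadjusted, the adjusted p of every gene shown was 1, and among the dark genes the interval of Glul alone leaves out 0.

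Markers of tissues around the retina and of its vessels moved between the ages as well. Of 17 lens crystallin and lens genes tested, 7 fell and 0 rose, with a median of -5.10 (WT -4.17). Of these 17, 15 passed the filter through P0 alone, so a fall was largely built into their choice. In Plk3-KO the P0 mean of all 18 lens genes on the array was 11.13, 12.47 and 6.62, and in WT 8.55, 4.54 and 13.99, while at P7 it lay between 4.71 and 5.66 on all 6 arrays. Cryaa read 13.3, 13.9 and 7.5 at P0 and 2.9, 2.7 and 5.7 at P7 in Plk3-KO. The spread at P0 within each genotype was thus as large as the change, and without the P7 arrays that stood apart 0 of the 17 were called. The third P0 array was lowest for Rcvrn and Pde6b in both genotypes, while for lens it was lowest in Plk3-KO and highest in WT. The part of lens tissue in other results was not tested.

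Of 22 genes of endothelium and pericytes, 14 rose and 1 fell, with a median of 2.13 (WT 2.58), and 13 passed the filter through P7 alone. Rgs5 read 8.6, 8.1 and 6.6 at P0 and 11.7, 12.1 and 12.5 at P7, did not overlap, and rose by 4.33 (SE 0.57, adjusted p = 4.548e-05; WT 5.0), Cldn5, of tight junctions, rose by 1.40, and Kdr, the VEGF receptor, fell by 0.90 on the log2 scale. Of 11 pigment epithelium genes 6 rose and 0 fell, and 3, Rpe65 among them, passed the filter through P7 alone. Rpe65, the isomerase of the visual cycle, read 1.8, 1.5 and 1.3 at P0 and 7.2, 8.8 and 8.2 at P7 and rose by 6.53, and Ttr, transthyretin, read 10.6, 8.8 and 9.9 and then 12.7, 14.7 and 13.7 and rose by 3.93. Of 13 genes of microglia and complement 7 rose, among them C1qa by 1.30, Csf1r by 1.50 and Ctss by 1.77, and of 6 astrocyte genes 4 rose, Pdgfra by 2.0. Of 3 red cell genes 1 rose, and of 18 genes of mesenchyme and collagen 3 rose and 1 fell, and Col1a2 did not pass. How much of any other change goes with these tissues was not tested.

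**Figure D5:**
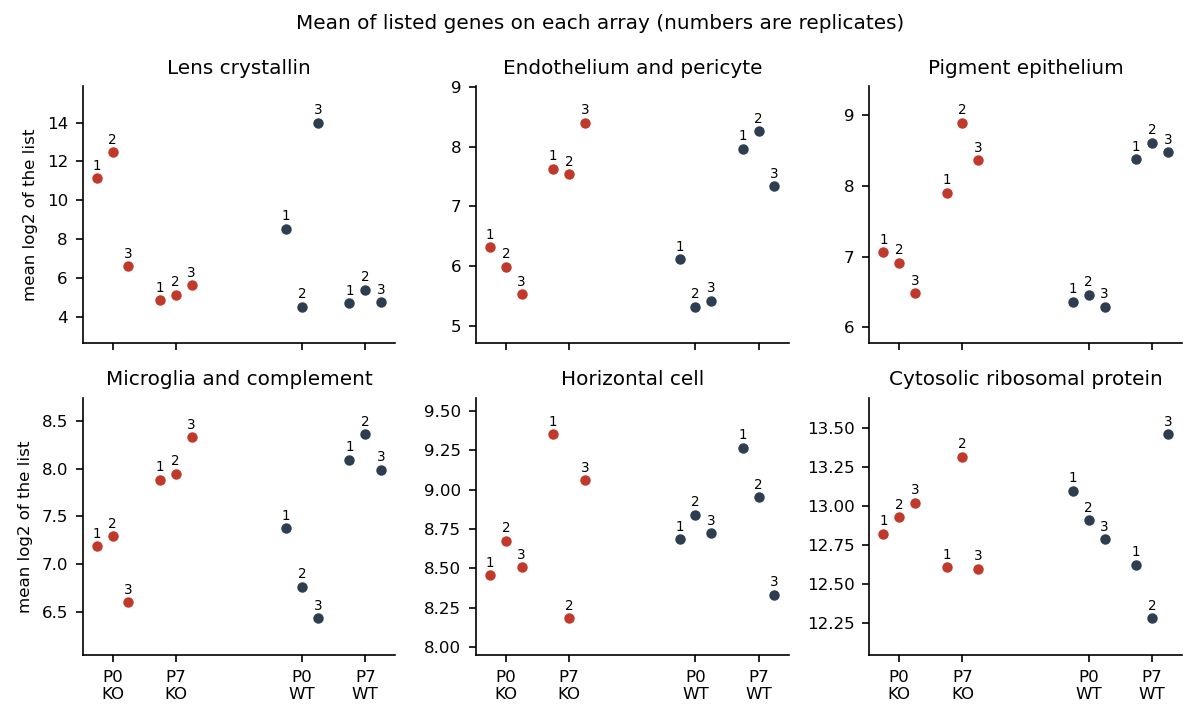
Mean log2 signal of the genes of 6 lists, tested or not, on each array, numbered by replicate, for Plk3-KO (red) and WT (dark) at P0 and P7. The lens panel shows the wide spread at P0 in both genotypes, from 4.54 to 13.99, and the horizontal and ribosomal panels show the second Plk3-KO and the third WT array at P7 apart from the others of their age.

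At P7 a pair of arrays stood apart from the rest. The second Plk3-KO and the third WT array had median signals of 6.4 against 6.8 to 6.9, 41.9% and 42.1% of probe sets above 7 against 47.7% to 48.6%, and a 3′ to 5′ difference of the actin control of 1.6 against 0.8 to 1.1. They correlated best with each other (r = 0.956), as did the first Plk3-KO with the first WT array (0.981) and the third Plk3-KO with the second WT array (0.982). As they fell 1 in each genotype, they bear on the level of both changes. Without both, 4461 probe sets were called in Plk3-KO. The part of RNA quality in the results above was not tested.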

How the data were processed

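Retinal RNA of Plk3-KO and WT mice was hybridised to 18 Affymetrix arrays, 3 for each of 6 groups of age and genotype, taken from the labels. The deposited values are log2 signals that the authors made with MAS5 (background adjustment and scaling, Bioconductor affy; version not given in the sources used here), written with 1 decimal. They hold no counts, so depth does not apply and precision is set by how many arrays a group has. Of 45101 probe sets, 64 controls were left out, and 34945 of the rest carry 1 gene symbol, 932 several and 9160 none. By gene ID, 34741 were matched to the GRCm38.p6 table, used for names, chromosomes and promoters.

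Probe sets with a mean above 7 at P0 or P7 in Plk3-KO were tested in every contrast, that of WT included. The study set the same cut-off on either genotype at 1 age. Where a probe set was above 7 at 1 age only, the direction of its Plk3-KO change was built into the choice. Lists for which no such count is given can hold such genes too. A mean per group was fitted to all 18 arrays with limma 3.58.1 (R 4.3.3, eBayes with trend, 12 residual and 4.09 prior degrees of freedom). Contrasts were P7 minus P0 in Plk3-KO, the same in WT, and their difference, each adjusted by Benjamini-Hochberg at 0.05. SE and 95% intervals come from this fit. A gene is represented by its probe set with the highest mean over the 12 P0 and P7 arrays. Replicate numbers were not used as pairs. Scripts were tested on simulated data.

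Members and gene lists were chosen with earlier results of these data known, and lists overlap. Genes named are the 12 largest rises and falls above 7 at both ages, the key genes and the 3 highest of each list, the 8 smallest p of the difference and 6 genes of the study. Alternatives covered scaling, filters, variance models, the methods' t-test, replicate blocks and left-out arrays.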

Additional observations from a re-analysis of the deposited data

How the results depend on the processing

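Over the alternatives run, 0 of the probe sets called both in the main fit and in an alternative changed sign, in Plk3-KO or in WT. Calls that an alternative lost were not checked for sign, and the difference had 0 calls, so its sign could not change. The number called in Plk3-KO (4871) was 3345 after centring, 5485 after quantile normalization, 3615 to 4866 with other filters, 6157 on the 12 P0 and P7 arrays and 5603 on the 6 Plk3-KO arrays alone. With array weights, whose estimate did not converge, it was 10289, and in WT 7254 against 4677. The methods' t-test with adjustment called 3363 in Plk3-KO and 2874 in WT, and 7551 and 7237 at an unadjusted p under 0.05. Leaving out 1 array at a time gave 3424 to 5332 calls in Plk3-KO, 3296 to 4816 in WT and 0 for the difference. Of 127 named genes called in Plk3-KO, 79 kept their call in every setting.

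Deviations of equal-numbered arrays correlated at -0.244, -0.189 and -0.022 between P0 and P7 in Plk3-KO. Between genotypes they correlated at 0.229, -0.043 and 0.154 at P0 and at 0.482, -0.54 and -0.674 at P7. At P7 the second Plk3-KO array went with the third WT array (0.672), and the third Plk3-KO with the second WT array (0.694). Replicate numbers thus did not pair all P7 arrays. With the replicate block as a fixed term 4634 probe sets were called in Plk3-KO and 4398 in WT, with a random block within age 4863 and 4645, and with either block 0 differed. Both blocks were built from the replicate numbers, so they do not cover the match of P7 arrays under other numbers, which was not tested.

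Centring also turned the median of the amacrine, horizontal, young neuron, ribosomal and mesenchyme lists above 0. Leaving out the P7 arrays that stood apart, chosen after seeing the data, turned those of the amacrine, horizontal and mesenchyme lists.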
